A study of Mus musculus with 19 samples.

Results

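Allograft tumours of the murine line FL8 were compared with embryonic mouse livers that express the fusion kinase of fibrolamellar carcinoma. Members were taken from the treatment and genotype labels: 5 FL8 tumours of mice given the carrier alone (called vehicle tumours 1 to 5) and 4 livers of the fusion genotype (called fusion livers 6 to 9, as numbered in the labels), together 9 of the 19 samples of the series. RNA was sequenced in all of them.

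The fusion livers came from embryos at day 18.5 of gestation (E18.5) with the genotype spelled DNAJ1B-PKA_Overexpression in the labels. These mice carry a DNAJB1-PKA-GFP cDNA in the Rosa26 locus behind a stop cassette flanked by loxP sites (Rosa26 LSL-DNAJB1-PKA-GFP). Cre recombinase driven by the albumin promoter (Alb-Cre) removes the cassette in the liver from mid-gestation, and the fusion kinase and green fluorescent protein then separate by self-cleavage. Recombination is therefore directed to cells of the hepatocyte lineage, while blood-forming and vessel cells of the same liver are not targeted. The vehicle tumours were FL8 cells enclosed in capsules of methacrylated gelatin and placed under the skin of the flank of NSG mice, a strain without functional lymphocytes that still has myeloid cells. Their mice were given methocel, the carrier of the drug arm, by gavage. The treatment label reads Control Carrier, while the series text names PBS and injections, and the label was followed. All vehicle tumours come from a single line, its derivation and genotype are not given in the sources used here, and host cells are also murine, so that their RNA is counted together with that of the tumour cells. For a repeat of the comparison in other libraries, 5 FL8 tumours of mice given palbociclib (75 mg/kg), an inhibitor of the cyclin-dependent kinases CDK4 and CDK6, and 5 E18.5 livers of the genotype control were used. Whether those control livers carry the silent cassette or Cre is not stated in the labels. Nothing in the labels says that each library came from a separate animal or litter, so the spread between libraries may be partly technical.

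Fibrolamellar carcinoma is a liver cancer of adolescents and young adults in which part of DNAJB1, which encodes a heat shock chaperone, is joined to PRKACA, which encodes a catalytic subunit of protein kinase A (PKA). PKA is held inactive by regulatory subunits until cyclic AMP (cAMP) binds them. Free catalytic subunits phosphorylate CREB, a transcription factor that binds cAMP response elements in promoters and switches on genes of fasting metabolism and fast feedback genes. The liver before birth is a blood-forming organ as well as a developing epithelium, so that erythroid and granulocyte precursors lie between immature hepatocytes that make alpha-fetoprotein. Zonation of the lobule, in which Wnt signalling from the central vein sets the pericentral enzymes, matures after birth.

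Both tables were reduced to the 12522 genes they share, and the reads of each library were scaled to a total of 1000000 over those genes (CPM). A gene was called only if the lowest library of one group lay at least 2 above the highest library of the other on the scale of log2(CPM + 1), a gap of 4-fold between the nearest libraries, and if its mean over the 9 libraries was at least 1 CPM, which left 11909 genes. No p-value was given to this call, because each group lies in its own table, from a separate experiment and a different pipeline, and tissue and pipeline cannot be told apart. Differences below are mean log2(CPM + 1) of the tumours minus that of the livers, with the standard error (SE) between libraries, over 5 tumours and 4 livers, and they understate the change of genes at low levels. Values in CPM compare a gene between libraries, and not one gene with another.

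The libraries held 2716369 to 23615691 reads on shared genes in the vehicle tumours, lowest in vehicle tumour 5, and 12913140 to 44347021 in the fusion livers. Vehicle tumour 1 stood apart: 46.6% of its reads were mitochondrial, against 1.24 to 4.12% in the other tumours. Its summed macrophage markers without Apoe stood at 6278 CPM, against 177 to 398 CPM in vehicle tumours 2 to 5. Among the fusion livers, ribosomal protein genes took 6.13% and 7.7% of the shared reads in livers 6 and 7 and 9.64% and 10.1% in livers 9 and 8. The Y-linked gene Ddx3y lay between 31.9 and 71.4 CPM in every vehicle tumour and at 58.4 CPM in fusion liver 9, and at or below 0.128 CPM in fusion livers 6 to 8, so that sex differed within the livers and between the groups.

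Of the 11909 genes, 384 (3.22%) were higher in the vehicle tumours and 343 (2.88%) in the fusion livers, together 6.10%. Groups that did not overlap at all, whatever the gap, were far more frequent: 3069 genes (25.8%) lay higher in all tumours and 2602 (21.8%) in all livers. Without vehicle tumour 1 the calls numbered 450 and 564, and without vehicle tumours 1 and 5 they numbered 625 and 620, a setting chosen after the data had been seen. The split depended on the scaling: 52.8% of the calls were higher in tumours, and 34.6% when the mitochondrial reads of the tumours stayed in their totals. Without uncertain genes, defined below, 311 (3.21%) and 226 (2.33%) of 9683 genes were called, and edgeR's test against a 4-fold difference gave 621 (5.21%) and 442 (3.71%) at an adjusted p under 0.05. The median difference over all genes was 0.07, and -0.13 with those reads kept.

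In the other libraries, 454 genes (3.81%) were higher in palbociclib tumours than in control livers and 542 (4.55%) were lower. Of the 384 genes higher in vehicle tumours, 289 (75.3%) were called again there in the same direction, as were 267 (77.8%) of the 343 higher in fusion livers. Those libraries differ in drug and genotype as well, and they share the line, the tissue and the pipelines with the first comparison. Some genes are hard to count: 18.7% of all genes tested had at least 10% of their exon bases under another gene or at least 10% of their 50-base words in the transcripts of another gene. Such genes made up 19% of the calls higher in tumours and 34.1% of those higher in livers, and are given below as uncertain, since the counting of such reads can differ between the pipelines.

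**Figure D1:**
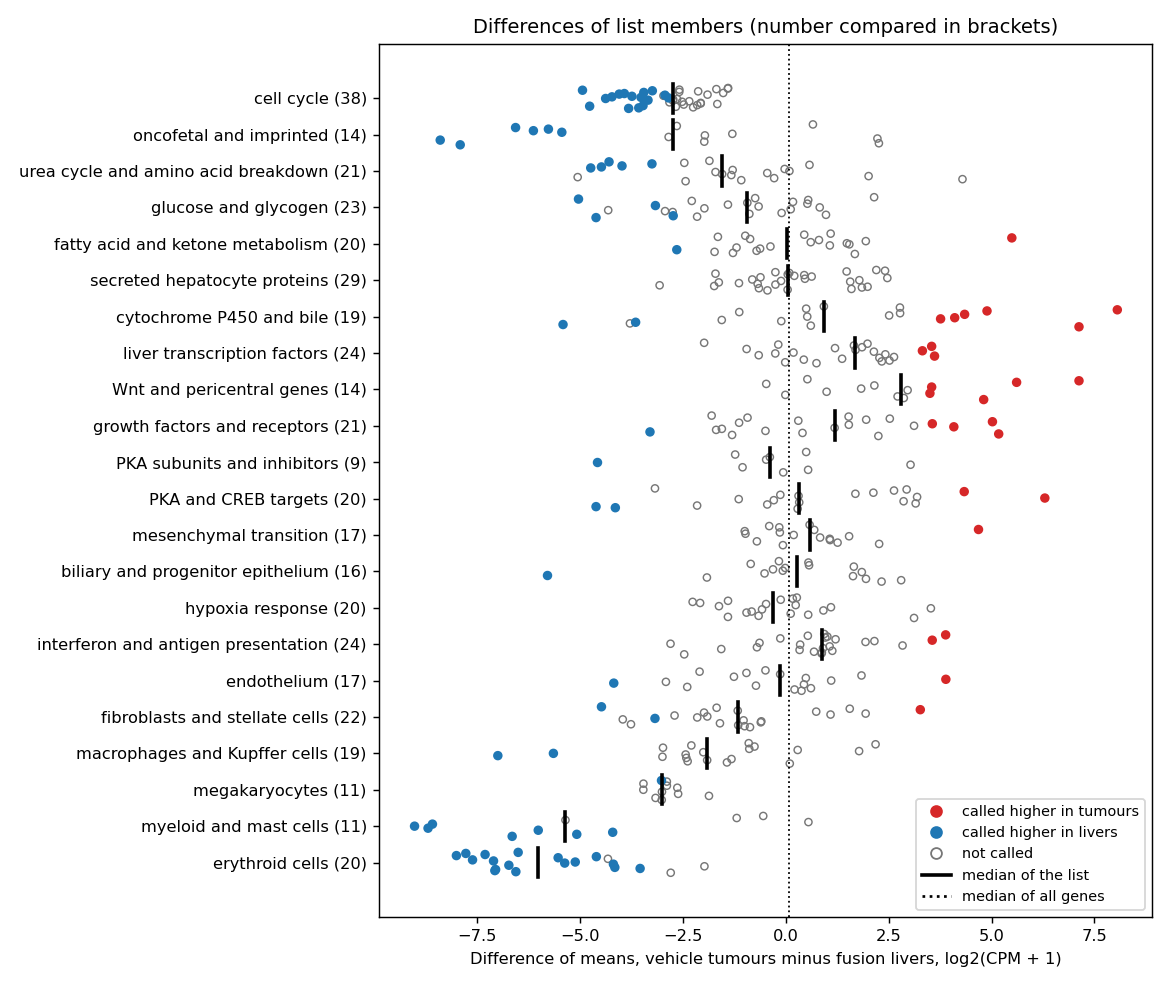
Difference of each list member (points, filled where called), as log2(CPM + 1) of vehicle tumours minus fusion livers, with the median of each list as a bar. Of the lists shown, the erythroid list lies farthest on the liver side, with a median of -6.02, and the Wnt and pericentral list farthest on the tumour side, with a median of 2.79.

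The catalytic subunit itself was not called. Prkaca (chr8:83972993-83996443, + strand, GRCm38) stood at 82, 80.4, 69.1, 86.2 and 40.9 CPM in vehicle tumours 1 to 5 and at 123, 77.8, 54.4 and 52.8 CPM in fusion livers 6 to 9, and the groups overlapped (difference -0.06, SE 0.34). Control livers stood at 44.2 ± 4.69 CPM (SD, n = 5). Whether the cassette holds mouse or human sequence is not given in the sources used here, so the level of Prkaca cannot be read as the level of the fusion. Dnajb1, the other partner, overlapped as well, at 58.2 to 130 CPM in tumours and 52.5 to 80.3 CPM in livers. Of the 10 members of the list of PKA subunits and inhibitors, 9 passed the filter on low values, and the median difference was -0.39. Of the 9, 1 was called, against 6.10% of all genes in either direction.

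Prkar2b, a regulatory subunit of the type II holoenzyme, was the member called. It stood at 5.38, 3.66, 4.32, 0 and 0 CPM in the vehicle tumours and at 67.3, 67.7, 64.7 and 62.0 CPM in the fusion livers (difference -4.59, SE 0.60). Every liver was above every tumour by more than the spread within either group. The 3 reads that a count of 0 allows amount to 0.134 CPM in vehicle tumour 4 and 1.10 CPM in the shallow vehicle tumour 5, and this bound covers counting error only. Its sister subunit Prkar2a leaned the other way, at 60.4 to 135 CPM in tumours and 7.36 to 17.8 CPM in livers, with a gap of 1.70 that missed the call. Prkar1a, the regulatory subunit of type I, was lower in all tumours (117 to 186 against 294 to 334 CPM) with a gap of 0.66. Control livers held 52.4 to 63.3 CPM of Prkar2b and palbociclib tumours 0.479 to 2.64 CPM, the same order as in the main comparison.

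Of 24 genes listed as targets of PKA and CREB, 20 were in both tables and passed the filter. The calls went both ways: 2 were higher in the tumours, Fos and Atf3, and 2 in the livers, Pck1 and Ppargc1a. The shares over all genes were 3.22% and 2.88%, and the median was 0.32 beside 0.07 over all genes. The 250 bases upstream of these genes are shown because a cAMP response element is the site at which CREB acts, and because the promoters can be read beside opposite differences. The sequences are those of RefSeq on GRCm38.p6, 5′ to 3′ along the gene, and capitals mark each TGACG, the short form of the element, on either strand (CGTCA where it lies on the other strand).
Fos: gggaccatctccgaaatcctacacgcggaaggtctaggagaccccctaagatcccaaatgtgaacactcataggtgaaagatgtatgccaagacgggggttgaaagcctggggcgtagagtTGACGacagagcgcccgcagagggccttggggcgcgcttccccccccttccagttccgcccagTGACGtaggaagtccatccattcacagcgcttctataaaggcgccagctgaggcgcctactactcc
Atf3: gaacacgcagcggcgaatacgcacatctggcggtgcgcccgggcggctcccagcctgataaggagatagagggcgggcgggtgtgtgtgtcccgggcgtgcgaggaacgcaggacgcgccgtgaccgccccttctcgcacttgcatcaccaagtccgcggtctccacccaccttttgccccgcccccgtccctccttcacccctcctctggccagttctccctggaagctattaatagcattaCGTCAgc
Pck1: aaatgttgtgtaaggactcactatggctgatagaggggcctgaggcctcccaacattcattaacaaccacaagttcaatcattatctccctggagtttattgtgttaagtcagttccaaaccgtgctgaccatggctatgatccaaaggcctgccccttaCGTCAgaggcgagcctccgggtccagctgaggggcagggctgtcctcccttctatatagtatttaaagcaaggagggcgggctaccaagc
Ppargc1a: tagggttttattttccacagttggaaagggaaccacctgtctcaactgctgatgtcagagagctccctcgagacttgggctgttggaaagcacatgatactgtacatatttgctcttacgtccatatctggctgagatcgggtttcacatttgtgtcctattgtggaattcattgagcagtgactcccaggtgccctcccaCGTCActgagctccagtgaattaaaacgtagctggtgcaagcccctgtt
The windows are chr12:85473640-85473889 (+ strand) for Fos, chr1:191183334-191183583 (- strand) for Atf3, chr2:173152823-173153072 (+ strand) for Pck1 and chr5:51567726-51567975 (- strand) for Ppargc1a.

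All 4 windows hold TGACG: 2 copies in Fos, at 129 and 66 bases before the start, and 1 copy each in Atf3 (7 bases), Pck1 (90 bases) and Ppargc1a (49 bases). None of them holds the palindrome TGACGTCA. The Atf3 window lies within the annotated span of its gene (chr1:191170296-191218039, - strand), which begins further upstream, so only 1 start of Atf3 is shown. TGACG was found for 16 of the 22 listed genes matched to an upstream sequence (72.7%). A gene counted if any of its sequences held the motif, and listed genes that were not compared were included. Over single sequences, TGACG was found in 26.0% of the 12068 upstream sequences of genes compared, and in 17.8% of all 32851. TGACGTCA was found in 2 of the 22, in 2.48% and in 1.55%. The palindrome contains TGACG on both strands, so each match of it is counted among the short ones. The list holds known CREB targets, so these shares describe it, and the motif was present on both sides of the comparison.

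Fos, a component of the AP-1 transcription factor and an immediate early gene, stood at 684, 286, 364, 44.3 and 30.6 CPM in vehicle tumours 1 to 5 and at 1.62, 1.15, 0.852 and 0.625 CPM in the fusion livers (difference 6.29, SE 0.89). The tumours spread widely among themselves, with numbers 4 and 5 lowest, and even these lay far above every liver. Atf3, a stress-induced repressor of the ATF and CREB family, stood at 143, 239, 216, 57.1 and 93.9 CPM against 5.50, 4.53, 6.12 and 6.32 CPM (difference 4.34, SE 0.39). In the palbociclib tumours Fos had a mean of 84.8 ± 65.4 CPM (SD, n = 5), and in the control livers 1.17 ± 0.469 CPM (SD, n = 5). Junb, another early gene, was higher in all tumours (292 to 1208 against 60.6 to 100 CPM), as was Pde4b, a phosphodiesterase that degrades cAMP (41.6 to 116 against 5.21 to 14.2 CPM). Neither gap reached 2.

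Pck1, the enzyme that commits carbon to gluconeogenesis, stood at 51.1, 45.0, 59.6, 35.2 and 23.6 CPM in the tumours and at 1601, 1068, 1175 and 542 CPM in the livers (difference -4.61, SE 0.40). Ppargc1a, the coactivator that raises gluconeogenic and mitochondrial genes in fasting, stood at 2.02, 3.50, 2.84, 2.28 and 2.58 CPM against 84, 58.5, 73.1 and 42.8 CPM (difference -4.14, SE 0.23). For both genes the livers were high in all 4 libraries and fusion liver 9 was the lowest of them. Levels in the control livers were closer to those of the tumours: 5.74 to 60.4 CPM for Pck1 and 7.02 to 9.29 CPM for Ppargc1a. For 2 other members the fusion livers overlapped the tumours. Crem, the cAMP-inducible repressor of CREB, stood at 28.8 to 39.8 CPM in the tumours and 18.5 to 35.8 CPM in the fusion livers, with 3.99 to 6.02 CPM in the control livers. Tat, tyrosine aminotransferase, stood at 39.8 to 607, 174 to 382 and 5.98 to 16 CPM in the same order.

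**Figure D2:**
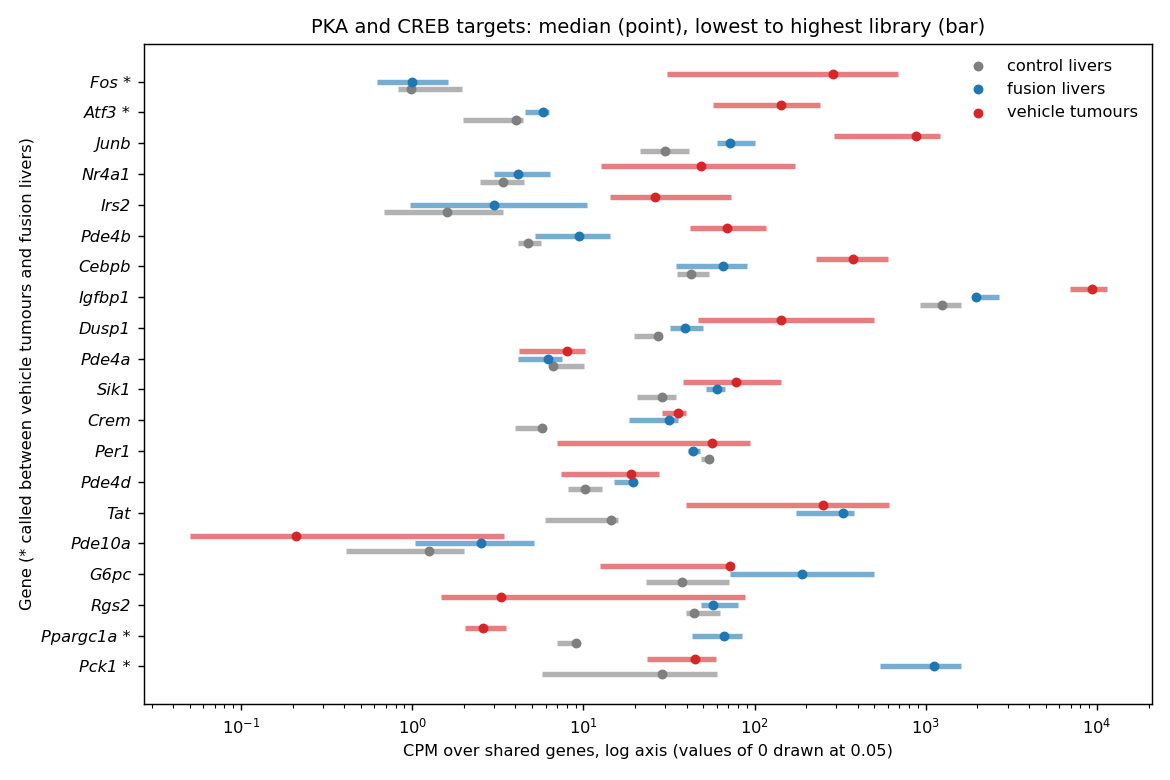
CPM over shared genes (log axis) of the PKA and CREB target list in control livers, fusion livers and vehicle tumours. Points are medians and bars run from the lowest to the highest library. Fos and Atf3 lie higher in all 5 vehicle tumours, Pck1 and Ppargc1a in all 4 fusion livers, while Crem overlaps between those groups.

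Of 14 marker genes of the human tumour, 7 could be compared and none was called, against 6.10% of all genes, with a median of -0.25. Slc16a14, Pcsk1 and Pak3 were read from the tumour files alone, at 0 to 0.502 of the deposited CPM in vehicle tumours. Nts, Calca and Car12 had no values for either group. The list also served an earlier look at these libraries and is no independent evidence. Oat, ornithine aminotransferase, came closest on the tumour side, at 334, 277, 446, 437 and 289 CPM against 93.9, 103, 71.1 and 53.2 CPM (difference 2.15, SE 0.26). Aurka, a mitotic kinase, leaned to the liver side, at 12.8 to 35.6 against 75.0 to 82.1 CPM (gap 1.05). E2f1 did so with a wider gap of 1.33, at 5.95 to 20.8 against 54.0 to 77.85 CPM.

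The tumours expressed the secreted proteins that define hepatocytes. Of 29 such genes tested, none was called in either direction, against 6.10% of all genes. The median difference was 0.05, close to 0.07 over all genes. In all tumours 9 lay higher and 6 lower, against background shares of 25.8% and 21.8%. Alb, serum albumin, stood at 33874, 44077, 40824, 47046 and 38832 CPM in vehicle tumours 1 to 5 and at 85362, 64758, 36904 and 46049 CPM in fusion livers 6 to 9. The groups overlapped, and livers 6 and 7 were the highest libraries. Its difference was -0.44 (SE 0.28), which became 0.14 when libraries were compared by ranks. Apoa1, the main protein of high-density lipoprotein, was higher in all tumours, at 24978 to 50719 against 8734 to 18928 CPM, with a gap of 0.40. Trf, transferrin, came nearest to a call among those lower in tumours (2245 to 5168 against 18674 to 33644 CPM, gap 1.85, an uncertain gene).

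Among 24 liver transcription factors, 3 were called, all higher in tumours, and 15 lay higher in all tumours, against 3.22% and 25.8% of all genes, with a median difference of 1.68. Prox1, which hepatoblasts need to migrate and expand, stood at 53.5, 134, 87.1, 114 and 61.9 CPM against 6.65, 6.70, 5.34 and 5.48 CPM (difference 3.62, SE 0.26). Tbx3, a repressor of the T-box family that is a Wnt target in liver, stood at 34.8 to 90.3 against 3.17 to 5.21 CPM. Nr5a2, a nuclear receptor of bile acid synthesis, stood at 44.2 to 76.7 against 2.78 to 9.13 CPM. All 3 fell below the call when the tumours' mitochondrial reads stayed in their totals, with gaps of 1.88, 1.59 and 1.21, and Nr5a2 also under TMM scaling, with a gap of 1.98. Hnf4a, the central regulator of hepatocyte genes, was higher in every tumour but not called: 595, 1157, 920, 834 and 430 CPM against 214, 165, 115 and 114 CPM, with a gap of 1.00.

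Wnt and pericentral genes had the highest median of the lists in the plot of list medians. Of 14 Wnt and pericentral genes tested, 5 were called, all higher in tumours, and 11 lay higher in all tumours, against 3.22% and 25.8% of all genes, and the median was 2.79. Axin2, a feedback inhibitor used as a readout of Wnt signalling, stood at 18.8, 49.4, 49.0, 48.4 and 27.6 CPM in the tumours and at 0.338, 0.128, 0.310 and 0.555 CPM in the livers (difference 4.81, SE 0.29). Vehicle tumours 1 and 5 were the lowest and still far above all livers. Slc1a2, a glutamate transporter of pericentral hepatocytes, stood at 119, 84.4, 121, 111 and 111 CPM against 1.58, 0.574, 1.16 and 1.87 CPM (difference 5.61, SE 0.21). Tcf7, a transcription factor partner of beta-catenin, stood at 11.4 to 34.7 against 0.510 to 1.80 CPM, and Tbx3 and Cyp2e1 complete the count. Glul, glutamine synthetase, was higher in all tumours (1385 to 3103 against 296 to 397 CPM) and missed the call with a gap of 1.80. It is an uncertain gene. Without vehicle tumour 1, 7 of the 14 were called, and calls higher in tumours over all genes rose as well.

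Cyp2e1 (chr7:140763739-140774987, + strand), the ethanol-oxidising cytochrome P450 of pericentral hepatocytes, stood at 972, 847, 1171, 1022 and 1766 CPM in the tumours and at 1.69, 5.55, 4.03 and 45.5 CPM in the livers (difference 7.12, SE 0.91). Fusion liver 9 was above its 3 companions and still far below the tumours. The control livers were between the groups, at 139 to 262 CPM, so that the size of this difference depends on which livers are taken. In all, 19 genes of the cytochrome P450 and bile list were tested, and the median was 0.93. Of these, 6 were higher in tumours and 2 in livers, against 3.22% and 2.88% of all genes.

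Abcc2, the pump that exports conjugates into bile, stood at 305, 812, 698, 423 and 340 CPM against 28.8, 24.8, 14.4 and 25 CPM (difference 4.35, SE 0.35). Cyp27a1 (162 to 474 against 16.3 to 24.5 CPM) and Cyp7b1 (13.8 to 68.5 against 0.361 to 0.893 CPM), which act in the acidic route of bile acid synthesis, and Slco1b2, an uptake transporter (125 to 857 against 3.92 to 27.3 CPM), were higher in tumours too. The other direction held Cyp4a14, a fatty acid omega-hydroxylase (0 to 1.47 against 10.6 to 29.6 CPM), and Cyp2f2, a periportal and lung enzyme that is an uncertain gene (0 to 0.762 against 44.0 to 60.0 CPM). Cyp7a1, the rate-limiting enzyme of the classic bile acid route, overlapped, at 3.68 to 7.83 against 2.68 to 14.1 CPM.

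**Figure D3:**
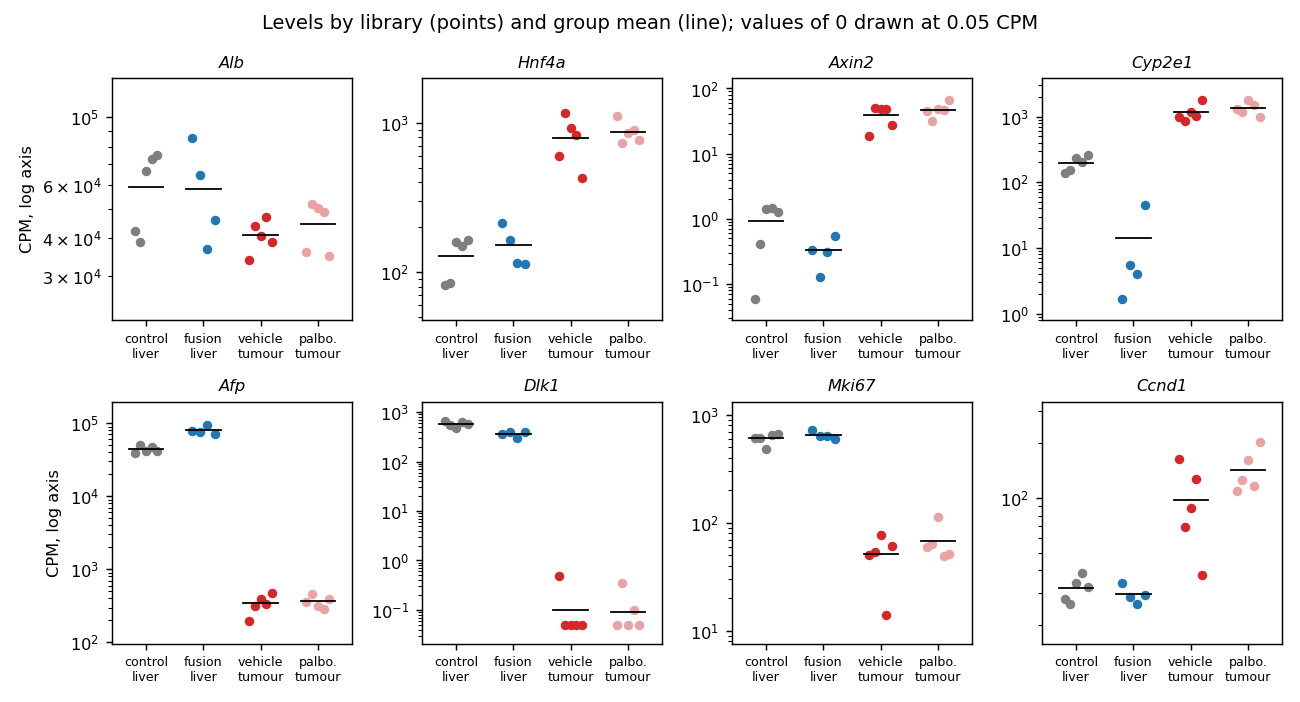
CPM over shared genes (log axis) of hepatocyte, pericentral and fetal genes in each library. Alb overlaps between vehicle tumours and fusion livers, Axin2 and Cyp2e1 lie higher in all 5 tumours, and Afp and Dlk1 lie higher in all 4 livers.

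Fetal liver genes were mostly higher in the livers. Of 14 oncofetal and imprinted genes tested, 6 were called, all higher in livers, against 2.88% of all genes, and the median was -2.75. Afp (chr5:90490737-90508907, + strand), alpha-fetoprotein, lies next to Alb on the chromosome and is silenced after birth. It stood at 196, 315, 387, 338 and 477 CPM in vehicle tumours 1 to 5 and at 78101, 75555, 94938 and 70934 CPM in fusion livers 6 to 9 (difference -7.91, SE 0.23). The nearest libraries were 7.21 apart on the log2 scale, whereas Alb did not separate the same libraries. Control livers held 39436 to 49573 CPM of Afp and palbociclib tumours 284 to 461 CPM.

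Dlk1 (chr12:109452823-109463336, + strand), a membrane protein of hepatoblasts that is expressed from the paternal copy, stood at 0.489, 0, 0, 0 and 0 CPM against 366, 400, 302 and 396 CPM (difference -8.40, SE 0.15). It was nearly absent from the tumours at their depth. Plagl1, an imprinted zinc finger gene, stood at 0.367, 0, 0, 0.358 and 0 CPM against 62.6, 58.6, 58.2 and 63.2 CPM (difference -5.77, SE 0.11). Cdkn1c, an imprinted inhibitor of the cell cycle and an uncertain gene, stood at 0.850 to 5.81 against 277 to 362 CPM. Peg3 (0 to 0.593 against 24.7 to 90.2 CPM) and Mest, an uncertain gene (0.895 to 2.94 against 142 to 200 CPM), complete the 6. The fetal genes were not all low in the tumours. Igf2, the fetal growth factor and an uncertain gene, stood at 4368 to 16442 CPM against 1127 to 3678 CPM, and Gpc3, a proteoglycan used as a marker of hepatocellular carcinoma, at 596 to 1135 against 137 to 225 CPM, with gaps of 0.25 and 1.40. H19, which is expressed from the maternal copy next to Igf2, was lower in all tumours, at 1259 to 3263 against 4765 to 15133 CPM.

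Enzymes of nitrogen metabolism lay mostly lower in the tumours: 5 of 21 urea cycle and amino acid genes were higher in livers, none in tumours, and 14 lay lower in all tumours, against 2.88% of all genes called higher in livers and 21.8% lower in all tumours. The median was -1.55. Got1, the cytosolic aspartate aminotransferase, stood at 68.8, 89.5, 63.7, 82.5 and 45.3 CPM against 1098, 1130, 1433 and 790 CPM (difference -3.98, SE 0.24). Control livers held 74 to 84.6 CPM of Got1, within the range of the tumours, so this separation was from the fusion livers. Sdsl, a serine dehydratase relative, stood at 3.98, 2.09, 2.84, 0.895 and 0.736 CPM against 67.6, 72.5, 102 and 65.0 CPM. Bhmt, the betaine-dependent methyltransferase of homocysteine and an uncertain gene, stood at 4.76 to 10.2 against 131 to 205 CPM, and in control livers at 135 to 421 CPM. Gls2 (0.736 to 12.3 against 77.6 to 250.1 CPM), the liver glutaminase, and Agxt (40.6 to 86.1 against 451 to 861 CPM), which detoxifies glyoxylate, complete the 5. Arg1, the last enzyme of the urea cycle, varied from 0.368 to 105 CPM among the tumours and from 254 to 686 CPM in the livers, and was not called. Ass1, which makes argininosuccinate, lay higher in all tumours (8.10 to 137 against 1.13 to 4.49 CPM) and is an uncertain gene.

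Of 23 glucose and glycogen genes, 4 were higher in livers and none in tumours, against 2.88% and 3.22% of all genes. The median was -0.93, and 6 were higher in livers without vehicle tumour 1 or without vehicle tumour 5, where calls over all genes rose as well. The 4 were Pck1, Fbp1, Gapdh and Ldhb. Fbp1, fructose bisphosphatase, stood at 155 to 255 CPM in the tumours and 1155 to 1464 CPM in the fusion livers, and control livers were as high, at 979 to 1200 CPM. Gapdh and Ldhb are uncertain genes: many processed copies of Gapdh lie in the mouse genome, and its 15.8 to 94.7 CPM in tumours against 574 to 1933 CPM in livers cannot be read as the level of the enzyme. Ldha, lactate dehydrogenase A, differed far less, at 1911 to 2152 against 2730 to 4285 CPM. Among 20 genes of fat metabolism 1 was called each way, against 3.22% and 2.88% of all genes, with a median of 0.04. Scd1, the desaturase that makes monounsaturated fat, stood at 2240, 6599, 4546, 2521 and 2486 CPM against 57.7, 97.6, 85.3 and 60.3 CPM (difference 5.49, SE 0.35), high in all tumours. Acadvl, an acyl-CoA dehydrogenase of mitochondria and an uncertain gene, was higher in livers (44.5 to 72.0 against 328 to 391 CPM). Fasn, fatty acid synthase, was higher in all tumours with a gap of only 0.19.

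Every one of the 38 cell cycle genes tested lay below all fusion livers in all vehicle tumours, against 21.8% of all genes. Of the 38, 16 were called, against 2.88% of all genes, and the median was -2.74. Mki67, a marker of dividing cells, stood at 50.1, 54.1, 77.7, 13.9 and 61.1 CPM in vehicle tumours 1 to 5 and at 717, 642, 642 and 594 CPM in fusion livers 6 to 9 (difference -3.82, SE 0.42). Vehicle tumour 4 was the lowest tumour. Ccna2, cyclin A2 and an uncertain gene, stood at 9.24, 11.3, 15.4, 4.70 and 12.5 CPM against 266, 277, 357 and 297 CPM. Cdc6, which licenses replication origins, stood at 1.71, 1.62, 0.593, 0 and 0 CPM against 57.6, 48.9, 50.8 and 39.7 CPM (difference -4.94, SE 0.33). Rrm1, a subunit of ribonucleotide reductase, stood at 17.4, 11.9, 12.4, 11.1 and 14.4 CPM against 264, 234, 249 and 199 CPM (difference -4.05, SE 0.14). The summed list stood at 326.5 to 735 CPM in tumours and 4330 to 4801 CPM in livers. Precursors of red cells, which divide rapidly, were abundant in the same livers: the summed erythroid markers stood at 6441 to 7388 CPM there and at 106 to 2186 CPM in the tumours. Their part in the cell cycle difference was not tested, and in bulk RNA fewer cells of a type and less RNA per cell cannot be told apart.

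**Figure D4:**
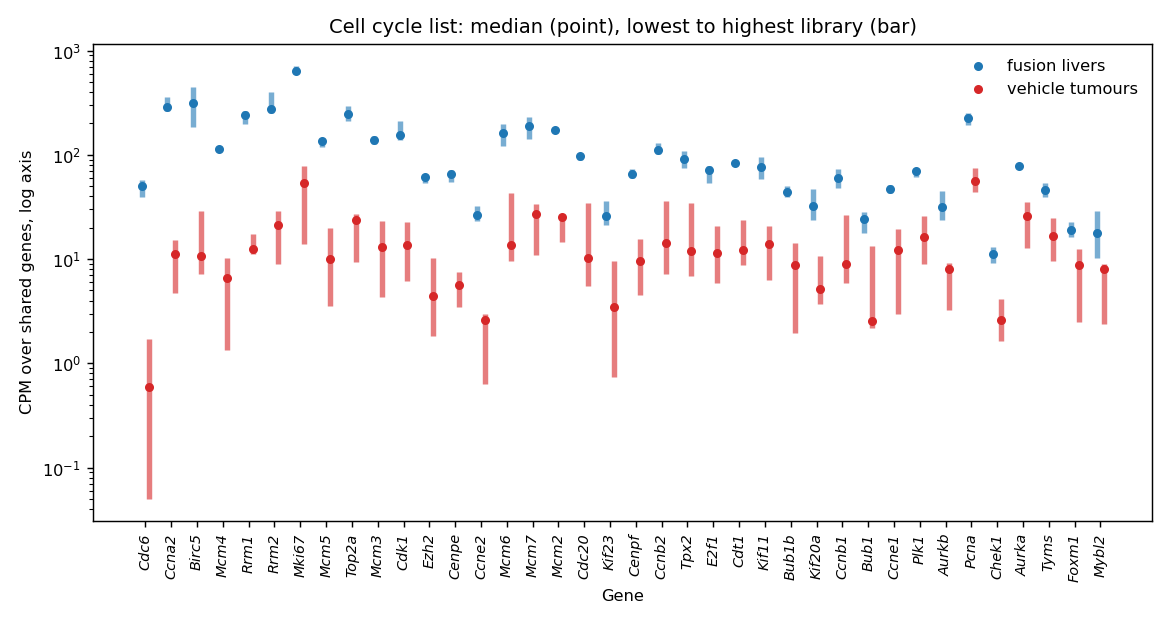
CPM over shared genes (log axis) of the cell cycle list in vehicle tumours and fusion livers. Points are medians and bars run from the lowest to the highest library. Mki67, Ccna2, Cdc6 and Rrm1 lie lower in all 5 tumours.

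Regulators of the G1 phase and p53 targets were called both ways, 2 and 2 of 21 tested, with a median of 0.21. The shares over all genes were 3.22% higher in tumours and 2.88% higher in livers. Cdkn1a, the p53-induced inhibitor p21, stood at 234, 512, 328, 254 and 197 CPM in the tumours and at 26.7, 39.0, 26.9 and 37.8 CPM in the livers (difference 3.12, SE 0.28). Phlda3, another p53 target, stood at 116, 80.9, 54.5, 121 and 52.3 CPM against 6.13, 7.15, 5.96 and 6.45 CPM (difference 3.45, SE 0.26). Both were high in all tumours, though Cdkn1a fell below the call with mitochondrial reads in the total (gap 1.59). Control livers held 57.0 to 76.5 CPM of Cdkn1a, above the fusion livers. Ccnd3, cyclin D3, was called in the other direction, at 87.9, 88, 62.2, 47.1 and 37.2 CPM against 447, 581, 691 and 588 CPM, and Cdkn1c, given above, is the fourth. Ccnd1, cyclin D1 and an uncertain gene, stood at 164, 69.2, 87.7, 127 and 37.9 CPM against 34.0, 28.5, 26.2 and 29.1 CPM, higher in all tumours with a gap of 0.15. Cdkn2a, the gene of the CDK4/6 inhibitor p16 and of Arf, was read from the tumour files alone, at 6.77 to 9.22 of the deposited CPM. Its level in liver was not analysed here.

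Of 21 growth factor and receptor genes tested, 4 were called higher in tumours and 1 lower, against 3.22% and 2.88% of all genes, with a median of 1.19. Erbb3, the neuregulin receptor, stood at 49.0, 115, 108, 69.0 and 50.1 CPM against 2.41, 1.08, 0.620 and 0.555 CPM (difference 5.17, SE 0.37). Fgf21, a fasting and stress hormone of the liver, stood at 9.54, 38.4, 36.6, 35.4 and 63.0 CPM and was at 0 in all 4 fusion livers, where 3 reads amount to 0.0676 to 0.232 CPM. Control livers held 0.222 to 1.38 CPM of Fgf21. Pdgfa, a platelet-derived growth factor and an uncertain gene (25.2 to 45.4 against 0.833 to 1.08 CPM), and Tgfa, a ligand of the receptor Egfr (83.4 to 165 against 7.59 to 10.0 CPM), were higher as well. Igf1r, the receptor through which Igf2 also acts, was the gene called lower, at 1.84, 1.41, 1.19, 0.269 and 0 CPM against 17.6, 19.1, 16.5 and 14.2 CPM (difference -3.30, SE 0.30). Vegfa, the endothelial growth factor, was higher in all tumours and varied among them, at 253, 1377, 826, 344 and 527 CPM against 94.4, 82, 43.8 and 46.3 CPM, with a gap of 1.41. It is 1 of 20 genes of the hypoxia list, of which none was called, against 6.10% of all genes (median -0.30). Without vehicle tumour 4, 1 was called, and calls over all genes rose as well.

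Mesenchymal genes did not set the tumours apart: of 17 tested, 1 was called, against 6.10% of all genes, and the median was 0.58. Vim, vimentin, stood at 647 CPM in vehicle tumour 1, at 46.2 to 104 CPM in the other tumours and at 83.7 to 158 CPM in the livers. Of 16 biliary and progenitor genes tested 1 was called, near the share of 6.10% over all genes. Cd24a, a surface protein of progenitors and of erythroid and lymphoid precursors, stood at 57.5, 29.6, 68.8, 6.40 and 2.21 CPM against 1168, 1067, 1171 and 1002 CPM (difference -5.80, SE 0.87). Krt19, the keratin of bile ducts, was low in both groups, at 0 to 2.21 CPM and 2.94 to 4.79 CPM. Krt8 and Krt18, the keratins of simple epithelia, were higher in all tumours (1094 to 3034 against 235 to 301 CPM for Krt8, an uncertain gene, and 1177 to 2919 against 366 to 485 CPM for Krt18), with gaps of 1.86 and 1.28.

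Among 24 genes of the interferon response and antigen presentation, 2 were higher in tumours and none in livers. The shares over all genes were 3.22% and 2.88%, and the median of the list was 0.89. Nlrc5, the activator of class I genes, stood at 30.7, 66.1, 47.9, 41.3 and 17.3 CPM against 1.85, 1.85, 1.16 and 1.53 CPM (difference 3.88, SE 0.33). H2-D1, a class I heavy chain and an uncertain gene, stood at 879 to 1712 against 66.0 to 104 CPM, highest in vehicle tumour 1. B2m, the light chain, was higher in all tumours, at 1420 to 2213 against 410 to 512 CPM, and missed the call. The interferon-stimulated genes Isg15 (26.2 to 70.3 against 210 to 270 CPM) and Rsad2 (20.9 to 121 against 299 to 450 CPM) were lower in all tumours and not called, so members of the list differed in direction.

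Blood cell genes separated the groups most. Of 20 erythroid genes tested, 17 were higher in livers, against 2.88% of all genes, with a median of -6.02. Ermap, a red cell adhesion protein, stood at 0.612, 1.31, 0.423, 0.358 and 0 CPM in vehicle tumours 1 to 5 and at 346, 350, 414 and 414 CPM in fusion livers 6 to 9 (difference -8.00, SE 0.21). Gata1, the erythroid master regulator, stood at 0 to 0.734 against 146 to 178 CPM. Alas2, the first enzyme of haem synthesis in red cells and an uncertain gene, was an exception, at 40.5 to 1965 CPM in tumours and 1066 to 1500 CPM in livers. Globin genes Hbb-bs and Hba-a1 were read from the tumour files alone, where they ranged from 270 to 46877 and from 935 to 42136 of the deposited CPM. Globin levels thus differed widely among the tumours, lowest in vehicle tumour 5 and highest in vehicle tumour 3. With the erythroid genes left out of the totals, 382 and 346 genes were called in place of 384 and 343. The listed genes held at most 7388 of the 1000000 CPM in any of these libraries, so the scale could hardly move. These counts therefore do not show what erythroid cells contribute to the calls.

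Of 11 granulocyte and mast cell genes 7 were higher in livers, against 2.88% of all genes (median -5.35). Camp, an antimicrobial peptide of neutrophil granules, stood at 9.97, 0, 0, 0 and 0 CPM against 450, 872, 1150 and 1087 CPM, and Ngp, another granule protein, at 16.8, 0, 0.339, 0.626 and 0 CPM against 826, 934, 858 and 817 CPM. Vehicle tumour 1 was the only tumour above 1 CPM for either gene. Of 5 lymphocyte genes tested, 2 were higher in livers, against 2.88% of all genes. They were Cd79a of the B cell receptor (0 to 0.418 against 16.6 to 35.1 CPM) and Vpreb1 of its precursor, an uncertain gene (0.418 to 0.918 against 26.1 to 58.5 CPM). Among 11 megakaryocyte genes tested, 9 lay below all livers in all tumours, against 21.8% of all genes. Of the 11, 1 was called, F2rl2, a thrombin receptor, against 2.88% of all genes. Without vehicle tumour 3, 5 of the 11 were called, and 2 without fusion liver 6. Calls higher in livers over all genes also rose in both settings.

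Macrophage markers depended on vehicle tumour 1. Of 19 tested, 2 were higher in livers with all libraries (median -1.91), against 2.88% of all genes, and 7 without that tumour (median -2.88). The 2 mark resident macrophages of liver and spleen: Marco, a scavenger receptor, stood at 2.81, 0, 0, 0.0895 and 0 CPM against 170, 146, 193 and 169 CPM, and Cd5l, a secreted scavenger protein, at 27.7, 0.942, 2.33, 0.448 and 0 CPM against 152, 128, 157 and 175 CPM. Cd5l missed edgeR's test against a 4-fold difference (adjusted p = 0.076) and passed that of limma (adjusted p = 0.0084). The list summed without Apoe, which hepatocytes also make, stood at 6278, 177, 398, 223 and 199 CPM in the tumours and at 1630, 1740, 1588 and 1730 CPM in the livers, so that vehicle tumour 1 was above the livers and the others were below. Sums for endothelium were 1815 CPM in vehicle tumour 1, 289 to 627 CPM in the other tumours and 528 to 645 CPM in the livers. Of 17 endothelial genes tested 1 was called each way, against 3.22% of all genes higher in tumours and 2.88% in livers. Stab2, a receptor of liver sinusoidal endothelium, was higher in livers (1.75 to 14.7 against 71.1 to 96.7 CPM), and Esm1, a marker of sprouting vessels, in tumours (107, 28.4, 41.7, 18.9 and 54.1 against 3.70, 1.59, 1.78 and 1.11 CPM). Of 22 fibroblast and stellate cell genes, Rgs5, a pericyte marker, was higher in tumours (13.2 to 74.3 against 0.699 to 2.43 CPM), and Lum and Loxl2 of the matrix in livers, the last an uncertain gene. These were 1 and 2 of the 22, against the same shares of all genes. Rgs5 fell to a gap of 1.98 under TMM scaling. Without vehicle tumour 1, 2 endothelial genes in place of 1 and 4 fibroblast genes in place of 2 were higher in livers. Over all genes too, calls higher in livers rose without that tumour, and a gap between fewer libraries can only widen. The same holds for the macrophage count above. Col1a1, a chain of type I collagen, overlapped (9.20 to 158 against 41.8 to 74.2 CPM). None of 5 genes of skin, muscle and fat at the implant site was called. Nor was any of 9 replication-dependent histone genes, whose transcripts lack a poly-A tail. Of all genes 6.10% were called, so counts this small cannot show that the groups were alike. The lists named 17 and 23 genes, and 2 of the 9 histone genes were not uncertain. In the tumour files alone, the skin keratin Krt5 stood at 14.7 to 32.8 of the deposited CPM in vehicle tumours. Ckm, Myh4, Myh1, Adipoq and Cfd of muscle and fat stood at 0 to 3.38 there. Whether these cell markers account for any of the gene calls was not tested.

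**Figure D5:**
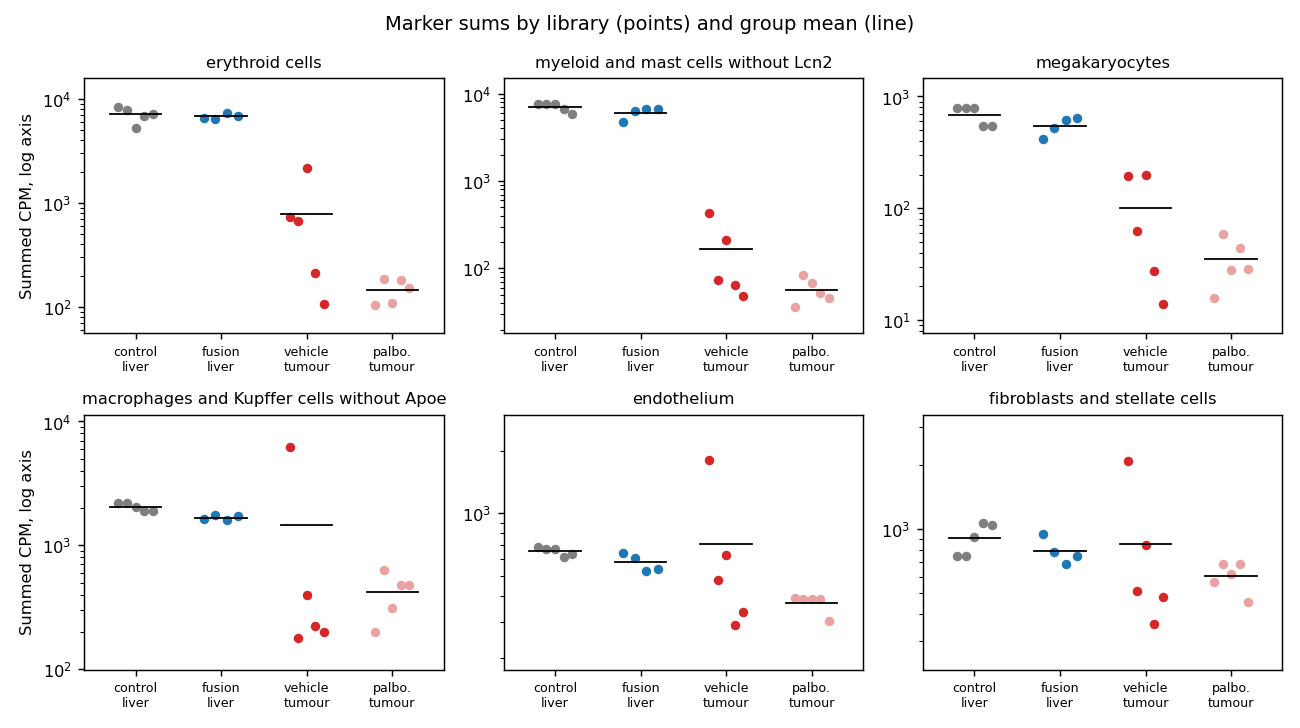
Summed CPM over shared genes (log axis) of cell-type marker lists in each library. Vehicle tumour 1 holds 6278 CPM of macrophage markers without Apoe, against 177 to 398 CPM in the other 4 vehicle tumours, and erythroid sums lie higher in all 4 fusion livers.

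The widest gaps over all genes are given next. On the tumour side, Serpina12, a secreted serine protease inhibitor, stood at 482, 457, 534, 484 and 679 CPM against 0.158, 0.638, 0.542 and 0.972 CPM (difference 8.40, SE 0.19). Inhbb, the beta B chain of inhibins and activins, stood at 65.2, 277, 191, 192 and 137 CPM against 0.564, 0.447, 0.232 and 0.278 CPM (difference 6.83, SE 0.36). Both were near 0 in every fusion liver, and low in the control livers too, at 2.71 ± 1.05 and 0.737 ± 0.371 CPM (SD, n = 5). Serpina3n, an acute-phase protease inhibitor, stood at 1142, 2546, 2022, 2327 and 1069 CPM against 4.94, 8.23, 1.78 and 17.8 CPM (difference 7.87, SE 0.64), and Lrg1, an acute-phase glycoprotein, at 1546, 2201, 1986, 2808 and 3187 CPM against 13.9, 25.6, 12.3 and 28.9 CPM (difference 6.83, SE 0.35). For these 2 genes control livers were higher than fusion livers, at 106 ± 55.9 and 78.3 ± 21.6 CPM (SD, n = 5).

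Others among the 10 widest were Mug1, Apoc2, Gstp2 and Rps27, which are uncertain genes, and Rpl34, a ribosomal protein gene at 211 to 618 CPM in tumours and 1.74 to 2.75 CPM in livers. On the liver side, Rpl24, Nme2, BC100530 and Stfa2 are uncertain genes, and so were 46.0% of the 50 widest gaps in that direction and 42.0% of those in the other. A ribosomal protein gene near 0 in one pipeline, Rpl24 in the tumours (0 to 0.804 CPM) and Rpl34 in the livers, is a value to be checked in the reads before it is used. The remaining genes on that side were Mir6236, Dlk1, Afp, Stfa3, Hemgn, Ermap, Add2 and Cldn13. Add2, the beta chain of the red cell membrane protein adducin, stood at 0.367, 0.523, 0.508, 0.358 and 0 CPM against 176, 180, 184 and 182 CPM (difference -7.08, SE 0.11), and Stfa3, a stefin of neutrophils, at 0 to 0.489 against 164 to 330 CPM. In all, 94 genes were named by the rule for named genes and 74 of them were called, 30 higher in tumours and 44 in livers. With the test against a 4-fold difference in limma, 71 of the 74 also had an adjusted p under 0.05 (all but F2rl2, Rgs5 and Lum), a threshold that 377 (3.17%) and 328 (2.75%) of all genes passed in the 2 directions. In edgeR's test 71 of the 74 passed as well, all but F2rl2, Cd5l and Lum. The 74 had been picked by their gap in the same libraries, so passing these tests is no independent evidence. Nor can the tests tell tissue and pipeline apart.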

How the data were processed

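Tumour files hold CPM deposited by the authors, made with cutadapt 2.10, HISAT2 and featureCounts per the submitters' processing notes; 100% of their values, within 0.01 reads, were whole multiples of the value of a single read and were turned back into reads. The liver table holds raw counts deposited by the authors (STAR 2.5.1b per those notes). The notes name the build mm10 for both, and the counter of the livers, their annotation and the use of strand are not given in the sources used here. Liver libraries were poly-A enriched per the labels, while RNA selection for the tumours is not stated. The liver table has a row total of at least 47 reads for every gene and no mitochondrial genes. Of 17606 tumour IDs, 17469 had a symbol in GENCODE M21, and 12522 symbols were shared with the 13549 of the livers. The 17 mitochondrial genes of the tumours were left out before rescaling. The design asked for genes counted in every fusion liver, which was read as having a value, 0 included.

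Calls, list counts and medians were computed with Python 3.11.15, numpy 2.4.6 and pandas 2.3.3, and figures with matplotlib 3.10.9. Alternatives were TMM factors, ranks, other pseudocounts, filters and gaps, leaving out each library, limma 3.58.1 (treat) and edgeR 4.0.16 (glmTreat on the recovered reads and counts) against a 4-fold difference, under R 4.3.3 with Benjamini-Hochberg adjustment over all genes tested. The scripts were tested on simulated data. Leaving out uncertain genes, vehicle tumours 1 and 5, or pairs of fusion livers was chosen after the data had been seen, as were the other settings of the repeat. No 2 libraries of a group agreed within sampling noise. Intervals from counts of 0 cover counting error only.

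The groups compared, the gene lists and the members were chosen with earlier results of these data known. Named genes were a fixed set of 12 (those measured in both tables), the 10 widest gaps in each direction with a mean of at least 10 CPM in the higher group (and the 10 widest outside the blood lists on the liver side), leaving out predicted genes, and up to 3 called members of each list per direction, or the 2 most abundant where none was called. Further list members in the text were named after their values had been seen. Some genes that the rule names are not reported here.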

Additional observations from a re-analysis of the deposited data

Results flagged for a closer look

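In each group of 4 or 5 libraries, the highest and the lowest value of every named gene were set against Dixon's 95% limit, and 17 of 167 groups of values held a library past it, where chance gives about 1 in 20. Vehicle tumour 1 accounted for 9 of them. It stood above the other tumours for Vim (647 CPM against 46.2 to 104), H2-D1 (1712 CPM against 879 to 941), Ltf (5.51 CPM against 0 to 0.339), Ngp (16.8 CPM against 0 to 0.627), Camp (9.97 CPM against 0 in the others) and Marco (2.81 CPM against 0 to 0.0895). It also stood above them for Cd5l (27.7 CPM against 0 to 2.33), Stab2 (14.7 CPM against 1.75 to 2.94) and Xist (18.9 CPM against 5.70 to 9.15). This library had 46.6% mitochondrial reads and the highest macrophage, endothelial and fibroblast sums of the vehicle tumours, and the part of either in these values was not tested.

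Among the fusion livers, liver 9 stood apart for Cyp2e1 (45.5 CPM against 1.69 to 5.55) and for Ddx3y of the Y chromosome (58.4 CPM against 0.0774 to 0.128). Liver 6 was highest for Rpl34 (2.75 CPM against 1.74 to 1.85), and lowest for Stfa2 (172 CPM against 253 to 267) and Ltf (560 CPM against 665 to 684). Vehicle tumour 2 was highest for Hemgn (1.05 CPM against 0 to 0.254) and lowest for Slc1a2 (84.4 CPM against 111 to 121), and vehicle tumour 5, the shallowest library, was highest for Krt19 (2.21 CPM against 0 to 0.105).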

How the results depend on the processing

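No named call changed direction under another scaling or pseudocount or with libraries left out, and 67 of the 74 kept their call in all of those settings; those lost were Prox1, Tbx3, Nr5a2 and Cdkn1a with mitochondrial reads in the total, Nr5a2 and Rgs5 under TMM factors, and Ldhb and Cyp4a14 under ranks (gaps 1.92 and 1.36). At a gap of 3, 53 of the 74 remained called. The count of genes higher in vehicle tumours (384) was 230 with mitochondrial reads in the total, 625 without vehicle tumours 1 and 5, 1083 at a gap of 1, 145 at a gap of 3 and 621 with edgeR's glmTreat. The count of genes higher in fusion livers (343) was 564 without vehicle tumour 1, 620 without vehicle tumours 1 and 5, 226 without uncertain genes, 949 at a gap of 1 and 155 at a gap of 3. Leaving out each library in turn gave 390 to 473 and 347 to 564; a gap between fewer libraries can only widen. The share of tumour calls repeated was 75.3% and became 80.0% under ranks, the highest of its settings. With limma's treat at an adjusted p under 0.05, 377 (3.17%) and 328 (2.75%) genes passed; the named calls that missed it were F2rl2 (adjusted p = 0.081), Rgs5 (0.17) and Lum (0.085). In edgeR's glmTreat they were F2rl2 (adjusted p = 0.058), Cd5l (0.076) and Lum (0.073). Of 521 list medians under the alternatives, 22 moved by more than the spread between libraries. No paired analysis was possible because the vehicle tumours are numbered 1 to 5 and the fusion livers 6 to 9, in separate experiments. Depth limits vehicle tumour 5 most, where a count of 0 allows 1.10 CPM. Tissue, age, host, library kind and pipeline differ together between the groups and cannot be told apart.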

Other observations

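Among genes in no list, those named here were picked from the widest gaps after their values had been seen, leaving out uncertain genes, and no theme was tested. Gclc, the catalytic subunit of the enzyme that starts glutathione synthesis, stood at 791 to 1141 CPM in vehicle tumours and 14.8 to 58.2 CPM in fusion livers (difference 5.14). Srxn1, sulfiredoxin, stood at 385 to 553 against 10.8 to 15.7 CPM (difference 5.14). Cbr3, a carbonyl reductase, stood at 85.5 to 472 against 2.43 to 2.71 CPM, Akr1c6, an aldo-keto reductase, at 521 to 2545 against 0.744 to 14.6 CPM, and Gstm2, a glutathione transferase, at 148 to 290 against 7.73 to 9.12 CPM. In control livers Gclc, Srxn1 and Cbr3 stood at 10.9 to 36.9, 10.2 to 13.8 and 0.413 to 0.957 CPM, while Akr1c6 (18.6 to 59.0 CPM) and Gstm2 (13.2 to 17.7 CPM) lay above all fusion livers there. Igfbp3, which binds insulin-like growth factors, stood at 782 to 1301 CPM against 27.8 to 39.0 CPM, and Egr1, an immediate early gene like Fos, at 424 to 1559 against 18.5 to 29.2 CPM. Zbtb20, a repressor that silences Afp after birth, stood at 35.0 to 67.1 CPM against 0.542 to 1.28 CPM.

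Metabolic enzymes named from those higher in fusion livers were Aass, the first enzyme of lysine breakdown (0.857 to 6.63 CPM against at least 86.5 CPM), Etnppl, which degrades phosphoethanolamine (0 to 1.95 against 65.9 to 161 CPM), and Aldh1b1, a mitochondrial aldehyde dehydrogenase (0 to 3.61 against 152 to 306 CPM). Control livers lay between the groups, at 24.3 to 53.6, 21.3 to 36.9 and 69.5 to 119 CPM in the same order, so the size of these differences depends on which livers are taken. Ttyh1, a membrane protein of the tweety family, stood at 38.3 to 74.3 CPM in fusion livers, at 0 to 2.41 CPM in vehicle tumours and at 0 to 0.946 CPM in control livers. A2m, alpha-2-macroglobulin, stood at 13.6 to 60.3 CPM in tumours, 697 to 1760 CPM in fusion livers and 2070 to 2852 CPM in control livers.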
